A study of Mus musculus with 4 samples.

Results

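The NF-YC binding sites of mouse embryonic stem cells were the 2675 sites that the authors' caller listed for the NF-YC chromatin immunoprecipitation (ChIP-seq) library against input DNA, out of 10091 sites in the 3 subunit lists of the series. Every site of the list was taken, with no threshold beyond the caller's own. NF-YC is a histone-fold subunit of the trimeric factor NF-Y. It pairs with NF-YB, the other histone-fold subunit, into a dimer shaped like that of histones H2A and H2B, and NF-YA joins this dimer and reads the CCAAT box. NF-Y is best known from promoters, where CCAAT boxes lie close upstream of the start of transcription, among them many promoters of cell cycle and replication-dependent histone genes. NF-YC does not read the CCAAT box itself; its histone fold contacts the DNA backbone within the assembled complex.

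The cells were E14Tg2a, a male mouse embryonic stem cell line of strain 129/Ola, with no knockdown or treatment named in the labels, at passages 20 to 35 in serum medium with LIF. Chromatin fixed with 1% formaldehyde for 10 min was sheared to about 200 to 500 bp, and 2 µg of a polyclonal rabbit antibody, per the labels, went into the NF-YC precipitation. Input DNA of the same line, with no antibody, was the comparison. There was 1 NF-YC library and 1 input library, so site values below describe these libraries, have no replicate check and are given without a test between lists or groups of sites. Intervals given in brackets are exact (Clopper-Pearson) 95% binomial intervals of a share over sites unless named otherwise, and they cover counting error only.

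The NF-YC library held 16335995 tags, of which 11390494 (69.7%) entered site calling after 1 tag was kept per genomic position. The kept tags split evenly between the strands, with 5695448 on the sense and 5695046 on the antisense strand. The kept share was 73.1% for NF-YA and 73.6% for NF-YB. The input file held 13767116 tags, or 6.48 tags per kb of the 2124 Mb that the caller took as mappable. The 2675 sites together held 122296 tags, 1.07% of the NF-YC tags kept.

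NF-YC sites ranged widely in strength. Site strength is given as the deposited tag count, the whole number of tags that the caller assigned to a site. The weakest sites had 14 tags, which was the caller's minimum and was met exactly by 110 sites (4.11%, 3.39 to 4.94). The lower quartile lay at 22 tags, the median at 36, the upper quartile at 59, the 95th percentile at 110 and the strongest site at 267. Sites of fewer than 20 tags numbered 465 (17.4%, 15.96 to 18.9), and sites of 100 or more numbered 193 (7.21%, 6.26 to 8.26). The tags were moderately concentrated: the 268 strongest sites held 25.6% of all tags at NF-YC sites and the 669 strongest held 49.1%.

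The upper end of the NF-YC list was lower than that of either other subunit once depth was allowed for. At rank 10 an NF-YC site had 15.9 tags when scaled to 1000000 kept tags per library, against 25 at the same rank for NF-YA and 19.6 for NF-YB. At rank 100 the values were 10.3 for NF-YC, 17.2 for NF-YA and 12.8 for NF-YB. Further down, NF-YC and NF-YB ran together: 4.04 and 4.18 scaled tags at rank 1000, and 1.93 and 1.95 at rank 2000, where NF-YA still had 3.48. Each library came from a different antibody and had no replicate, so a difference between the subunits and a difference between the precipitations cannot be told apart.

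**Figure D1:**
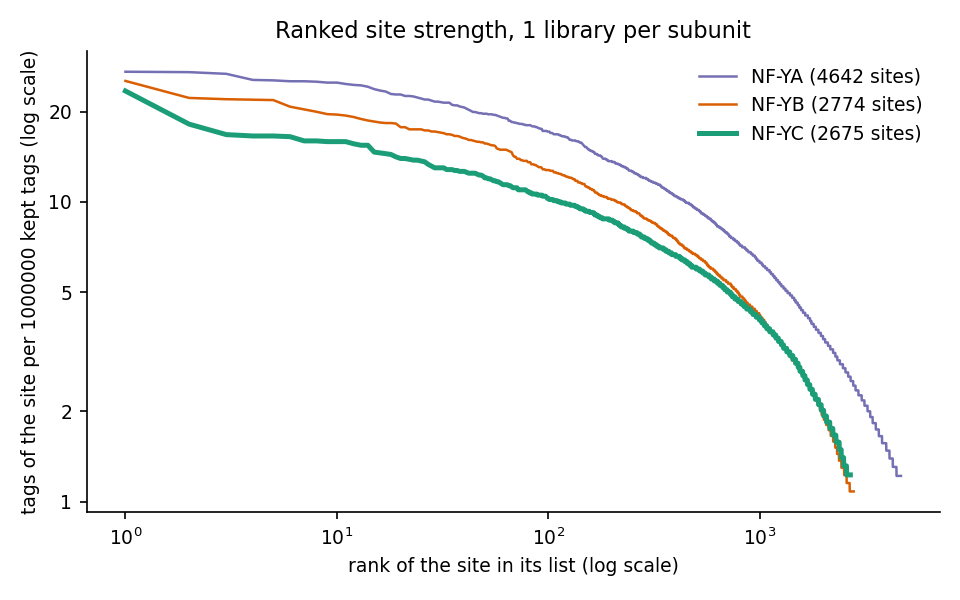
Tags of each site per 1000000 kept tags of its library (vertical, log scale) against the rank of the site in its list (horizontal, log scale), 1 line per subunit list. The NF-YC line starts at 23.4, lies below both others at rank 100 (10.3 against 17.2 and 12.8) and meets the NF-YB line near rank 1000.

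A single site stood apart at the top of the NF-YC list. It lay at chr3:90279771-90280031 (mm9) and had 267 tags, 60 more than any other NF-YC site. It was also broad, at 260 bp, and its fold over input was 46.1, which ranked 192 of 2675 in the list. Behind it came chr18:36720011-36720051 with 207 tags and a fold of 83.4, and chr10:127520171-127520211 with 191 tags and a fold of 57.7. The next sites were nearly level. The sites at chr11:119960071-119960111 and chr7:75894291-75894331 each had 189 tags, with folds of 57.1 and 38.1. The site at chr15:78893451-78893511 had 188 tags and a fold of 45.5. Tag counts of 182 were found at chr11:96839131-96839171 (fold 44.0) and at chr17:46689831-46689871 (fold 31.4). The last of the 10, with 181 tags each, were chr2:164595251-164595291 (fold 54.7) and chr8:86761091-86761151 (fold 43.8). The best rank by fold among these 10 was 38, and 7 of them had the narrowest interval in the list, 40 bp.

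Fold enrichment gave a different order of the sites. The deposited fold is the ratio of site tags to scaled input tags, and a fold of 7 was the caller's minimum. NF-YC folds ran from 7.01 to 198, with quartiles of 10.3 and 25.4 and a median of 16.5. A fold under 10 was found at 603 sites (22.5%, 20.97 to 24.2), and a fold of 100 or more at 20 sites (0.748%, 0.457 to 1.15). The site of highest fold was chr7:86417951-86417991, with 164 tags and a fold of 198. It was followed by chr3:89215871-89215911 (152 tags, fold 184), chr11:86922551-86922591 (146 tags, fold 176), chr15:76181631-76181671 (145 tags, fold 175) and chr11:55283011-55283051 (142 tags, fold 172). These 5 ranked between 18 and 42 by tags, and each had the lowest input count that can be recovered, 1 tag. Of the 100 sites of most tags, 21 were also among the 100 of highest fold. Across all 2675 sites the rank correlation of tags and fold was 0.44 (Spearman's rho). That value was 0.55 over the NF-YA sites and 0.53 over the NF-YB sites. Sites of a list share 1 library and 1 input, and fold contains the tag count, so these correlations are descriptions. The deposited p-value carried almost no further information: its rank correlation with fold was -0.9997, and it was at most 0.00061 in the list.

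The orders by tags and by fold differ by the input count under each site, which can be recovered from the file. For 2538 of the 2675 sites (94.9%, 94.0 to 95.7) the fold equalled, within 0.005, site tags over a whole input count times 0.827, the ratio of kept to background tags. As a check, the same input library lies under the other lists. Where an NF-YC and an NF-YA site had the same centre, the recovered input counts were equal in 250 of 281 pairs (89.0%, 84.7 to 92.4) and within 1 tag in 275. For NF-YB they were equal in 171 of 199 pairs (85.9%, 80.3 to 90.4) and within 1 tag in 194. With centres up to 20 bp apart they were equal less often, in 852 of 1099 pairs for NF-YA (77.5%, 74.9 to 79.96) and 582 of 793 for NF-YB (73.4%, 70.2 to 76.4), with differences of at most 3 and 4 tags. The recovery takes 1 as its lowest value, so a site listed at 1 may have had no input tag.

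Input counts at NF-YC sites were small whole numbers with a median of 3. Of the 2538 sites, 517 (20.4%, 18.8 to 22.0) had an input count of 1, 585 (23.0%) had 2, 503 (19.8%) had 3 and 374 (14.7%) had 4. Counts of 5 or more were found at 559 sites (22.0%, 20.4 to 23.7) and counts of 8 or more at 84 (3.31%, 2.65 to 4.08). For scale, the genome-wide mean of the input was 3.09 tags in a stretch of 476 bp, which is 2 fragment lengths as the caller estimated them. How long a stretch the caller counted over is not stated in the headers. Among sites with a whole input count, a count of 1 was found at 22.4% of 4294 NF-YA sites (21.2 to 23.7). It was found at 25.1% of 2682 NF-YB sites (23.5 to 26.8). The lists differ in depth and so in the tags a site needed at a given input count, and the shares were not compared by a test.

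Since fold is tags over scaled input, sites ranked by fold or by tags differ in input by construction, and the following counts give only the size of that difference. Among the 100 sites of highest fold, 73 had an input count of 1 and 5 had a count of 3 or more. Among the 100 sites of most tags, 8 had a count of 1 and 83 had 3 or more. Sites of similar strength differed widely in fold. The 234 NF-YC sites of 50 to 59 tags had folds from 7.39 to 71.3, with quartiles of 11.6 and 27.8. The sites of highest input count had many tags, which the fold minimum requires of them. The count was 15 at chr11:85166611-85166651 (123 tags, fold 9.91) and 14 at chr10:79317231-79317271 (129 tags, fold 11.1). It was 13 at chr5:116295211-116295251 (111 tags, fold 10.3) and at chr7:53042571-53042631 (101 tags, fold 9.39), and 12 at chr7:26006391-26006431 (95 tags, fold 9.57). These 5 sites ranked between 65 and 217 by tags and between 1901 and 2166 by fold.

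**Figure D2:**
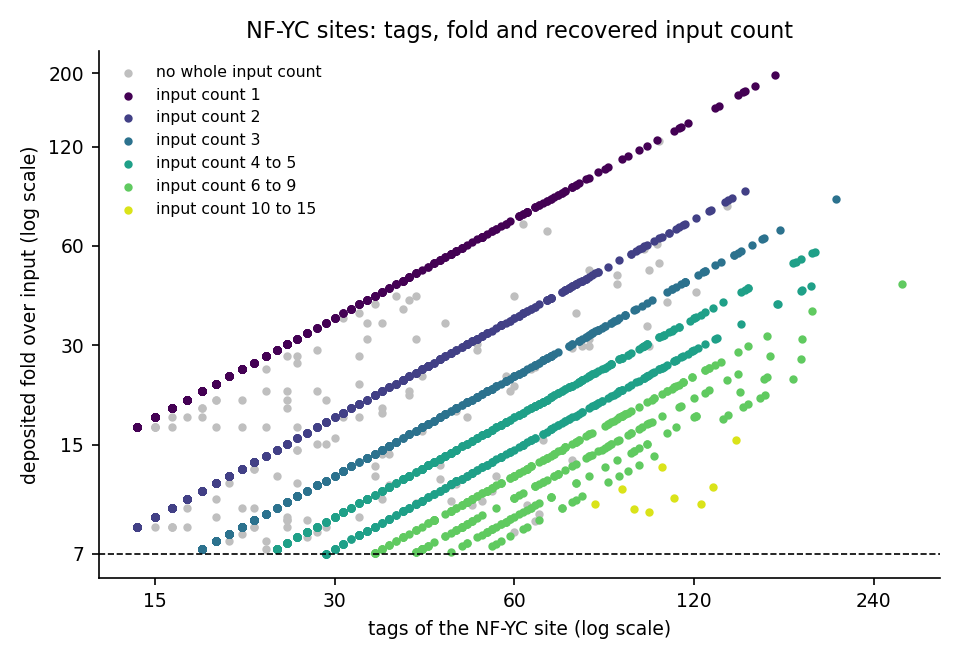
Deposited fold over input (vertical, log scale) against tags (horizontal, log scale) for each NF-YC site, 1 point per site, coloured by the recovered input count, with the fold minimum of 7 as a dashed line. Each input count forms its own line. The 517 sites of count 1 form the uppermost line, and the 9 sites of count 10 to 15 lie lowest among coloured points at a given tag count. Grey points are the 137 sites whose fold gave no whole input count.

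Tags and input went together over the whole list, where the fold minimum ties them to each other. The median NF-YC site had 22 tags at an input count of 1, 25 at 2, 32 at 3, 45 at 4, 51 at 5 and 63 at 6, and Spearman's rho of tags with input was 0.52 over all sites. The fold minimum lets a site in with 14 tags at an input count of 1 or 2, but asks for 18 at 3, 24 at 4, 29 at 5 and 53 at 9. The fewest tags seen were exactly those values at counts 1 to 8. With only sites of 53 or more tags and input counts up to 9, where the minimum removes none, rho was 0.11 over 770 sites. In that subset the median was 69 tags at an input count of 1, 73 at 2, 75 at 3, 73 at 4, 82 at 5 and 76 at 6 to 9. The limit at 53 tags was chosen after the values were seen. It also narrows the range of tags, which by itself can lower rho. How much of the rho of 0.52 rests on the fold minimum was therefore not tested.

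NF-YC sites were narrow, and sites of more tags tended to be narrower (Spearman's rho of tags with width -0.30 over all sites). Widths came in steps of 20 bp and all starts ended in the digit 1, with a caller's scanning window of 20 bp. The minimum of 40 bp was met by 1144 sites (42.8%, 40.9 to 44.7), 683 sites (25.5%) were 60 bp wide and 848 (31.7%, 29.9 to 33.5) were wider. The share wider than 60 bp was 35.2% in the NF-YA list (33.8 to 36.6) and 22.5% in the NF-YB list (20.99 to 24.1), so NF-YC was nearer to NF-YA in width. Sites of 40 bp had a median of 47 tags (quartiles 28 and 73), sites of 60 bp had 36 (23 and 54), sites of 80 to 100 bp had 30 (20 and 47) and sites of 120 to 200 bp had 25 (18 and 37). The share wider than 60 bp was 47.7% among sites of 14 to 19 tags, 29.96% among those of 30 to 49 and 13.3% among those of at least 100 but under 150. Median fold differed little between widths, at 16.9, 15.1, 14.5 and 16.3 over the same width classes, and at 16.9, 15.1, 14.5 and 15.1 over the sites with a whole input count. Median input was 3 in both narrow classes and 2 at sites of 120 to 200 bp.

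**Figure D3:**
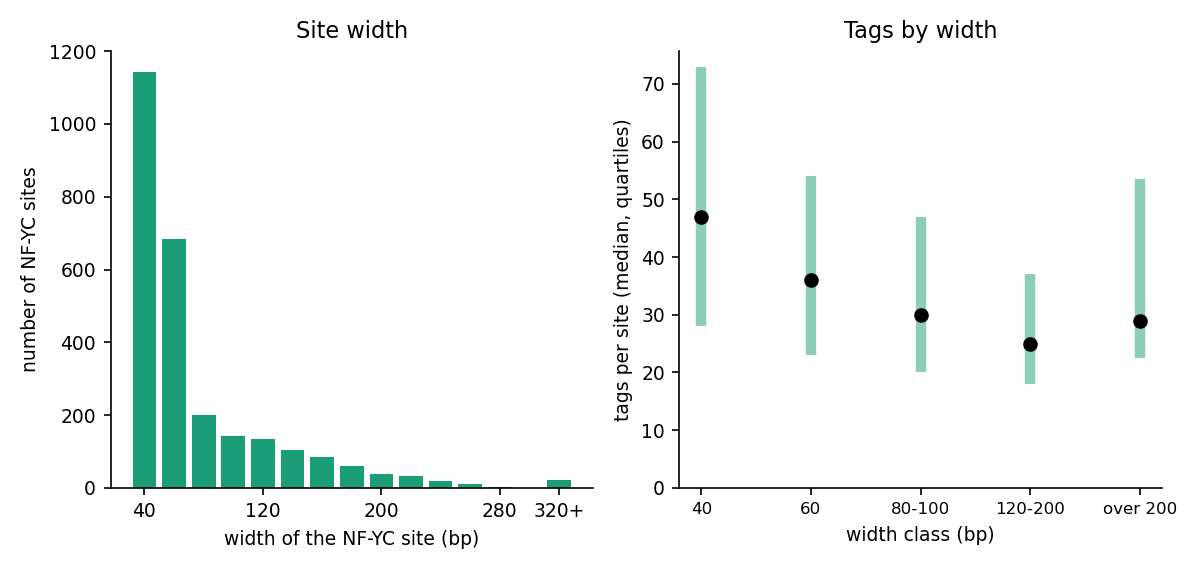
Left, number of NF-YC sites at each width in bp, with widths of 320 bp and more in the last bar. Right, tags per site by width class, with the median as a point and the quartiles as a bar. The median goes from 47 tags at 40 bp to 25 tags at 120 to 200 bp and is 29 tags above 200 bp.

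The broadest sites broke this order. The 87 NF-YC sites over 200 bp had a median of 29 tags and a median fold of 19.3, and the 22 sites of 320 bp or more had 56.5 tags and a fold of 26.1. The widest were on the Y chromosome, at chrY:1790651-1792071 (1420 bp, 53 tags, fold 10.2) and chrY:2786951-2788211 (1260 bp, 60 tags, fold 8.16). The third Y site, chrY:2862331-2862711, was 380 bp wide with 47 tags and a fold of 11.3. Away from the Y chromosome the widest were chr9:13631531-13632071 (540 bp, 81 tags, fold 24.5), chr1:193221051-193221571 (520 bp, 33 tags, fold 19.9) and chr8:116158971-116159471 (500 bp, 80 tags, fold 50.8). The 137 sites with no whole input count were wider than 60 bp without exception, with a median of 160 bp. At 84 of them (61.3%, 52.6 to 69.5) the fold equalled a whole number of tags, smaller than the listed count, over 1 input tag. At these 137 sites the fold is not the listed tags over a whole input count, whereas it was at the other 711 of the 848 sites wider than 60 bp.

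NF-YC sites were mostly far apart. The nearest other NF-YC site was a median of 109.6 kb away (quartiles 32.1 and 316 kb), and the median distance between adjacent sites along a chromosome was 240.4 kb. The corresponding means were 385.7 and 949.6 kb. No neighbour lay within 1 Mb for 240 sites (8.97%, 7.92 to 10.1). A neighbour within 10 kb was found for 271 sites (10.1%, 9.01 to 11.3) and within 1 kb for 80 (2.99%, 2.38 to 3.71). The NF-YB list, of similar length, had 10.9% of sites with a neighbour within 10 kb (9.75 to 12.1) and a median nearest distance of 109.5 kb. The NF-YA list, which is longer and so denser, had 16.3% (15.3 to 17.4) and 64.6 kb.

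**Figure D4:**
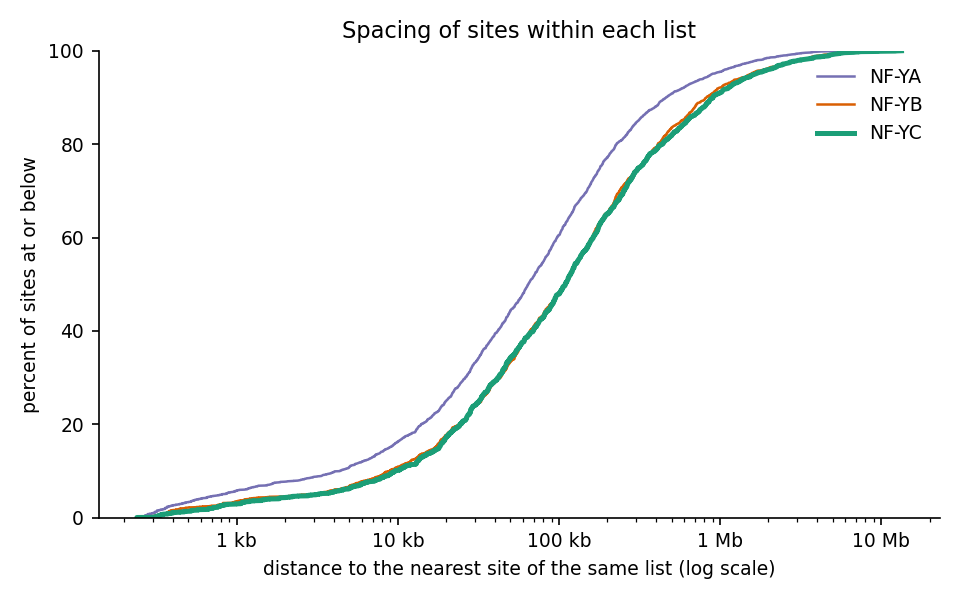
Percent of sites (vertical) whose nearest site of the same list lies at or below a given distance (horizontal, log scale), 1 line per list. The NF-YC and NF-YB lines nearly coincide, with medians of 109.6 and 109.5 kb, and the longer NF-YA list lies to the left with 64.6 kb.

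The closest NF-YC sites had centres 240 bp apart. Of the 2654 adjacent pairs, 41 had centres within 1 kb and 19 within 500 bp. The smallest distance, 240 bp, was the same in each subunit list. The fragment lengths that the caller estimated differed, at 238 bp for NF-YC, 234 bp for NF-YA and 224 bp for NF-YB. Edges of the closest NF-YC pair lay 200 bp apart, and both its sites were 40 bp wide. Of the 19 closest pairs, 14 lay between 300 and 400 bp. The closest pair was chr11:102889851-102889891 with 87 tags and chr11:102890091-102890131 with 88. In the next pairs the strengths were unequal. At 310 bp, chr7:26052831-26052871 had 39 tags and chr7:26053071-26053251 had 148, and chr14:56179271-56179451 had 47 and chr14:56179651-56179691 had 75. At 320 bp, chr4:117852351-117852391 had 56 tags and chr4:117852631-117852751 had 68, while chr9:4376171-4376211 had 19 and chr9:4376491-4376531 had 71. Over the 41 pairs within 1 kb the stronger site had a median of 1.54 times the tags of the weaker and at most 6.07 times. The median ratio was 1.78 over the 1822 adjacent pairs more than 100 kb apart. Tag counts of both sites of a pair had a rank correlation of 0.31 over the 41 pairs within 1 kb. It was 0.07 over 103 pairs at 1 to 10 kb, 0.10 over 688 pairs at 10 to 100 kb and 0.08 beyond 100 kb. The 41 pairs are few, and these correlations were not compared by a test. Whether the caller counts the tags of a close pair for both sites is not stated in the headers.

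Median strength was lowest at the most distant NF-YC sites, while the share with a close neighbour had no steady course with strength. The 80 sites with a neighbour within 1 kb had a median of 40 tags (quartiles 27.8 and 64.5) and the 191 with the nearest at 1 to 10 kb had 42 (23 and 60). Sites with the nearest neighbour beyond 1 Mb had 28.5 (20 and 49), and the quartile ranges overlapped. Read the other way, a neighbour within 10 kb was found for 10.1% of all sites and for 9.89% of sites of 14 to 19 tags. The share was 7.25% at 20 to 29 tags, 10.8% at 30 to 49 and 13.0% at 50 to 99. At 100 or more but under 150 tags it was 6.67% (11 of 165), and 1 of the 28 sites of 150 or more had such a neighbour. These shares were not tested against that of all sites. By distance, median input was 3 tags at sites with the nearest neighbour within 1 kb, 3 at 1 to 10 kb and 2 beyond 1 Mb. The 5 most isolated sites with neighbours on both sides were chr1:107886751-107886931 (19 tags), chr4:57932791-57932871 (36 tags), chr15:27234311-27234351 (33 tags), chrX:35929451-35929511 (21 tags) and chr5:53046391-53046431 (20 tags). The first was 12.5 Mb from its nearest neighbour, and all 5 were at or below the list's median strength. The longest stretch without an NF-YC site, 24.9 Mb, was on the X chromosome.

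A few 100 kb windows held many NF-YC sites. Of the 2190 windows with any site, 1816 held 1, 76 held 3 or more and 2 held 7 or more. The fullest was chr13:23600001-23700000 with 10 sites. In chromosomal order its sites had 42, 67, 17, 28, 15, 51, 106, 109, 15 and 62 tags, so weak and strong sites lay side by side, and their folds ran from 8.46 to 74.9. The next were chr13:23800001-23900000 with 7 sites (19 to 53 tags, median fold 23.0) and chr13:21800001-21900000 with 6 (14 to 74 tags, median fold 32.2). Median input was 2 tags per site in the first window, 1 in the second and 2 in the third. Mouse chromosome 13 carries the largest cluster of replication-dependent histone genes. Gene annotation of mm9 was not used here, so no gene is assigned to these sites. The windows chr7:26000001-26100000 and chr19:44300001-44400000 held 5 sites each, with medians of 81 and 45 tags.

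**Figure D5:**
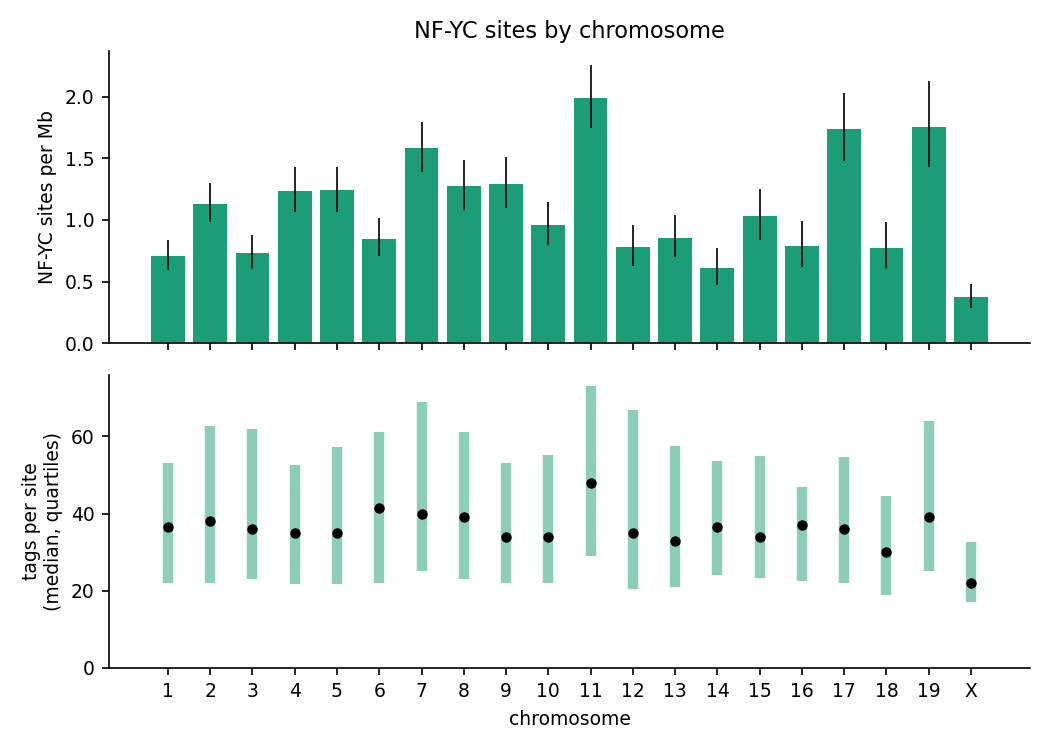
Top, NF-YC sites per Mb on each chromosome except Y (bars, with exact 95% Poisson intervals for counting error only). Bottom, tags per site, with the median as a point and the quartiles as a bar. Chromosome 11 is highest in both, at 1.99 sites per Mb and 48 tags, and X is lowest in both, at 0.370 sites per Mb and 22 tags.

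Among the autosomes and X, NF-YC sites were densest and had the highest median tag count on chromosome 11, and were sparsest with the lowest median on X. The Y chromosome had 3 sites, with a median of 53 tags. These were 380 to 1420 bp wide, and none had a whole input count. Chromosome 11 carried 236 sites, or 1.99 per Mb (exact Poisson interval 1.74 to 2.26) over the stretch that sites of the 3 lists span, with a median of 48 tags and 31 of the 193 sites with 100 or more tags. Its median fold was 16.9 and its median input 3 tags. Chromosomes 19 (1.75 per Mb), 17 (1.74) and 7 (1.58) followed, with intervals that overlapped each other and that of chromosome 11. Chromosome 14 was the sparsest autosome at 0.610 (0.476 to 0.771). Over all chromosomes the density was 1.05 per Mb. With Y left aside, chromosome 11 was also the densest in the NF-YA (3.47 per Mb) and NF-YB (2.06) lists. X was the sparsest in both, at 0.728 and 0.364. Median tags on the other autosomes lay between 30 and 41.5.

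The 59 NF-YC sites of the X chromosome had fewer tags than autosomal sites, while their median fold was not lower. Their tag counts ran from 14 to 68 with a median of 22 (order-statistic interval 19 to 27), against 37 (36 to 38) over the 2613 autosomal sites. None of the 59 had 100 or more tags (exact interval up to 6.06%), while 7.39% of autosomal sites did (6.41 to 8.46). The median fold was 18.1 on X (16.9 to 19.9) and 16.3 on the autosomes (15.5 to 16.9), and both medians were the same over the 55 X and 2483 autosomal sites with a whole input count. Input was lower as well, over these sites with a whole input count. A count of 1 or 2 was recovered at 43 of 55 X sites (78.2%, 65.0 to 88.2) and at 42.7% of the 2483 autosomal sites (40.7 to 44.6). A count of 1 alone was recovered at 23 of the 55 X sites and at 19.9% of the autosomal sites. At that count the minimum of 14 tags allows no fold under 16.9, so the median folds depend in part on the caller's minimum. X sites were also broader, with 55.9% wider than 60 bp (42.4 to 68.8) against 31.1% (29.3 to 32.9). Among sites of 14 to 29 tags these shares were 61.5% (44.6 to 76.6) and 44.6% (41.5 to 47.7), with overlapping intervals. Tag medians on X were also lower in the other lists, with 26.5 tags on X and 35 on autosomes for NF-YA, and 30 on X and 43 on autosomes for NF-YB. A male line carries a single X chromosome, and the part of copy number in these values was not tested.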

How the data were processed

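The authors called sites with SISSRs 1.4 from 1 library per subunit against 1 input file, per the file headers. The submitters' processing notes name Bowtie and mm9. The headers state an e-value of 10, a p-value threshold of 0.001, a window of 20 bp, 1 tag kept per position (which caps strong sites), 2 directional tags on each side, and minima of 14 tags and a fold of 7 for NF-YC. The deposited tag counts are whole and not normalized. The deposited fold is a ratio to scaled input. The deposited p-value was only described.

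Widths, centres and input counts (tolerance 0.005) were computed from the deposited values; input reads were not analysed here. Named sites were the 10 of most tags, the 5 of highest fold, highest input, greatest width, closest pairing and greatest isolation, and the 100 kb windows with 7 or more sites or, with fewer such windows, the 5 fullest. The third Y site was added after its values were seen. The subject, lists and rules were chosen with earlier results of these data known. The code for input recovery and spacing was tested on simulated lists with planted values. Their folds were made with the formula that the recovery inverts, so this tests the code and not the caller's counting. Sequence and gene annotation of mm9 were not used here. Software: numpy 2.4.6 and scipy 1.17.1 under Python 3.11.15, pandas 2.3.3 for tables, and matplotlib 3.10.9 for figures.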

Additional observations from a re-analysis of the deposited data

How the results depend on the processing

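Of 51 alternative values, 27 stayed within the interval of the reported value (for the number of sites, within 1.5 times) and 24 moved. Only the rank correlations could change sign, and none of them did. Leaving out chromosomes X and Y moved none of the 11 values it touched. That setting kept 2613 of the 2675 sites and could not change the density of the densest chromosome, an autosome. Keeping only sites with a fold of 10 or more gave a median of 42 tags, a median fold of 19.3, 26.3% of sites at an input count of 1, a median input count of 2, a nearest site at 140.2 kb, 8.35% with a neighbour within 10 kb, a rho of tags and fold of 0.36 and 1.58 sites per Mb on the densest chromosome. Keeping only sites of 20 or more tags gave 43 tags, 15.0% at an input count of 1, 124.4 kb, 8.69% with a neighbour and 28.3% wider than 60 bp. Keeping only sites of 60 bp or less gave 42 tags, a median width of 40 bp, 17.5% at an input count of 1, 151.9 kb, 7.99% with a neighbour, a rho of 0.48, 1.34 sites per Mb on the densest chromosome and, by construction, 0% wider than 60 bp. These settings remove sites, which by itself shifts medians and lengthens distances. Shares at an input count of 1 are over the sites with a whole input count. A neighbour within 1 kb was found for 2.99% of sites and within 50 kb for 34.2%. The rho of tags and input, 0.52 over all sites, was 0.11 in the subset chosen after seeing the data, which has a narrower range of tags. Scaling input by all tags of the library gave a whole input count at 0 sites, so that setting has no value. No paired analysis was possible because NF-YC was mapped in 1 library, and no library could be dropped. Depth limits the list at 14 tags, and the fold minimum asks for more at higher input, such as 24 at an input count of 4. A site below these limits is missing from the list, which does not show that NF-YC was absent.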
